A study of Mus musculus with 12 samples.

Results

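The 10 genes described here belong to the collagen and stromal matrix system and were followed across 12 mouse tumour libraries. They are the fibrillar collagen genes Col1a1, Col1a2, Col3a1 and Col5a2, the basement membrane collagen genes Col4a1 and Col4a2, the microfibril collagen gene Col6a1, the matrix protein genes Sparc and Fn1, and the receptor gene Pdgfra. They were taken by gene symbol, 10 of the 19921 symbols in the count tables, and all 10 were present. Of these, 9 passed the filter on low counts, and Col5a2, with 54 counts over all 12 libraries, did not.

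The tumours grew from 200000 cells of Colon26, a mouse colon carcinoma line, placed under the skin of wild-type BALB/c mice. Every group carried the same tumour, and every tumour was taken on day 10. The minP1 group received 0.08 µg of minP1, a peptide derived from HMGN1 (a nucleosome-binding protein) that stimulates immune cells, into the peritoneum on day 9. The anti-PD-L1 group received 200 µg of an antibody that blocks PD-L1, a ligand that restrains T cells, into the peritoneum on day 4 and again on day 8. The combination group received both, and the control group neither. Each group held 3 tumours from separate mice. The peptide of the combination group is named in the sample titles, while its treatment field names only the antibody after a plus sign, so what is said of the combination depends on those titles. Tumours had been digested with collagenase and DNase I, and tumour cells and dead cells had been reduced on Percoll, so the libraries describe what remained of the tumour after these steps. The assay (5′ SAGE) reads 1 tag from the 5′ end of each captured transcript, so tag counts need no correction for transcript length.

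Type I collagen is built from chains of Col1a1 and Col1a2, and with type III collagen (Col3a1) and type V collagen (Col5a2) it forms the fibres that fibroblasts lay down between cells. Type IV collagen (Col4a1, Col4a2) is the sheet-forming collagen of basement membranes around vessels and epithelia, and type VI collagen (Col6a1) forms beaded filaments close to cells. Sparc encodes a collagen-binding glycoprotein that guides fibre assembly, Fn1 encodes fibronectin, a cell-adhesive matrix protein made by fibroblasts and also by macrophages, and Pdgfra encodes a receptor for platelet-derived growth factors that marks fibroblasts.

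Library totals ran from 133917 to 473273 counts and were lowest in the combination, with 168872 ± 31806 counts against 378077 ± 93793 in controls (SD, n = 3 each). Genes detected at equal depth averaged 10081 in the combination and 11072 in controls. The share of counts from Bc1 and Lrrc17, a neuronal noncoding RNA and a secreted leucine-rich repeat protein, was 4.62% ± 1.95 in the combination and 1.86% ± 0.488 in controls. These features moved with the treatment, and their part in the results below is given only as refits that add Bc1, or the count of detected genes at equal depth, as a covariate. Epithelial and carcinoma markers summed to 25.6, 95.5 and 28.2 CPM in combination libraries (3 to 16 counts) and 25.6 to 38.1 CPM in control libraries (7 to 17 counts), so combination replicate 2 lay above the others. Krt8, a keratin of simple epithelia, had 1 count in each of these groups. Krt18, another keratin gene of the list, had 13.9 ± 24.1 CPM in the combination (7 counts in all) and 0 counts in controls. Levels below are in CPM, the usual per-library-size scaling of tag counts, here after TMM scaling (trimmed mean of M-values) between libraries. In such bulk libraries, fewer cells of a type and less RNA per cell cannot be told apart.

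Together the 10 genes held a similar share of the counts in every group, but the share was divided differently among them. Their summed share was 0.224% ± 0.0328 in minP1 tumours, 0.225% ± 0.0365 in anti-PD-L1 tumours, 0.21% ± 0.0368 in combination tumours and 0.233% ± 0.0281 in controls (SD, n = 3 each). Fn1 supplied 40.4% of these counts in minP1, 48.7% in anti-PD-L1, 50.2% in the combination and 31.1% in controls. Sparc supplied 12.1%, 8.52% and 3.98% in the minP1, anti-PD-L1 and combination groups, against 18.1% in controls. Col1a2 supplied 25%, 22.3% and 17.7% in the same treated groups, against 28.6% in controls. The sum therefore hid movements in opposite directions, which the single genes show.

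**Figure D1:**
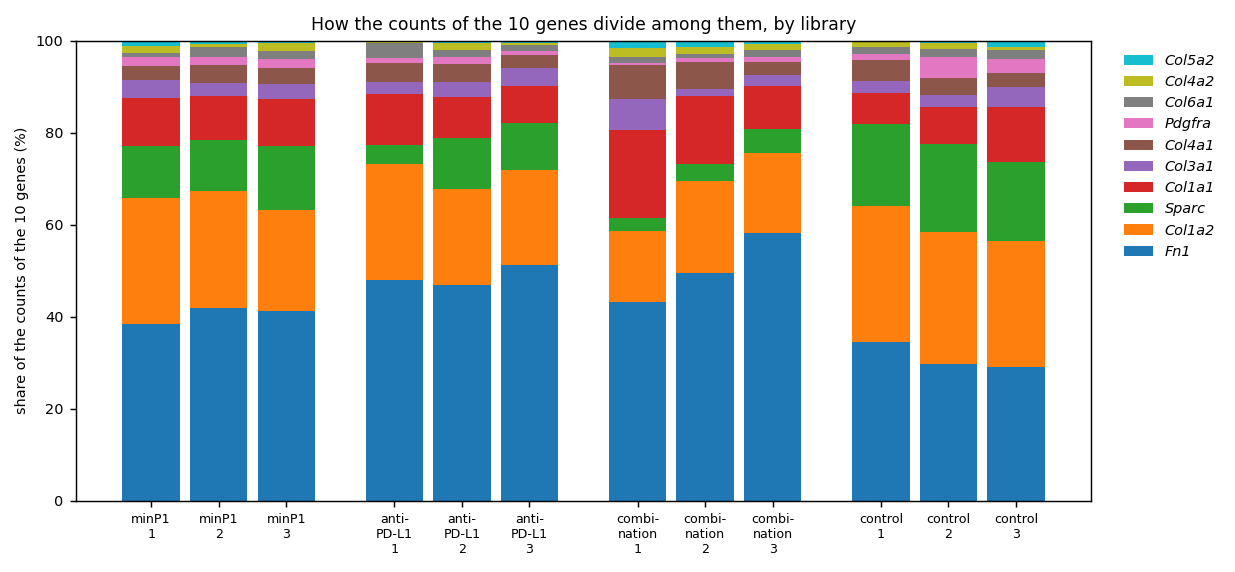
Share of the summed counts of the 10 genes taken by each gene (percent, y axis) in each of the 12 libraries (x axis), treated groups to the left of controls. Fn1 took 50.2% on average in the combination and 31.1% in controls, and Sparc 3.98% and 18.1%.

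In combination tumours against controls, Sparc was 4.8-fold lower, Pdgfra 4.15-fold lower and Col1a2 1.75-fold lower, and Fn1 was 1.51-fold higher. The other 5 tested genes, Col1a1, Col3a1, Col4a1, Col4a2 and Col6a1, did not pass. These 4 of 9 calls (edgeR's quasi-likelihood test, Benjamini-Hochberg adjusted p under 0.05) stand beside 34.8% of all 5443 genes tested, so the share of these genes that was called is near the background. By direction, 1 of 9 was higher beside 16.5% of all genes, and 3 of 9 were lower beside 18.3%. The median log2 fold change of the 9 genes was -0.04, against -0.06 over all genes. In minP1 against control 0 of all 5443 genes passed in edgeR, while 383 had an unadjusted p under 0.05 and 1 passed in DESeq2.

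**Figure D2:**
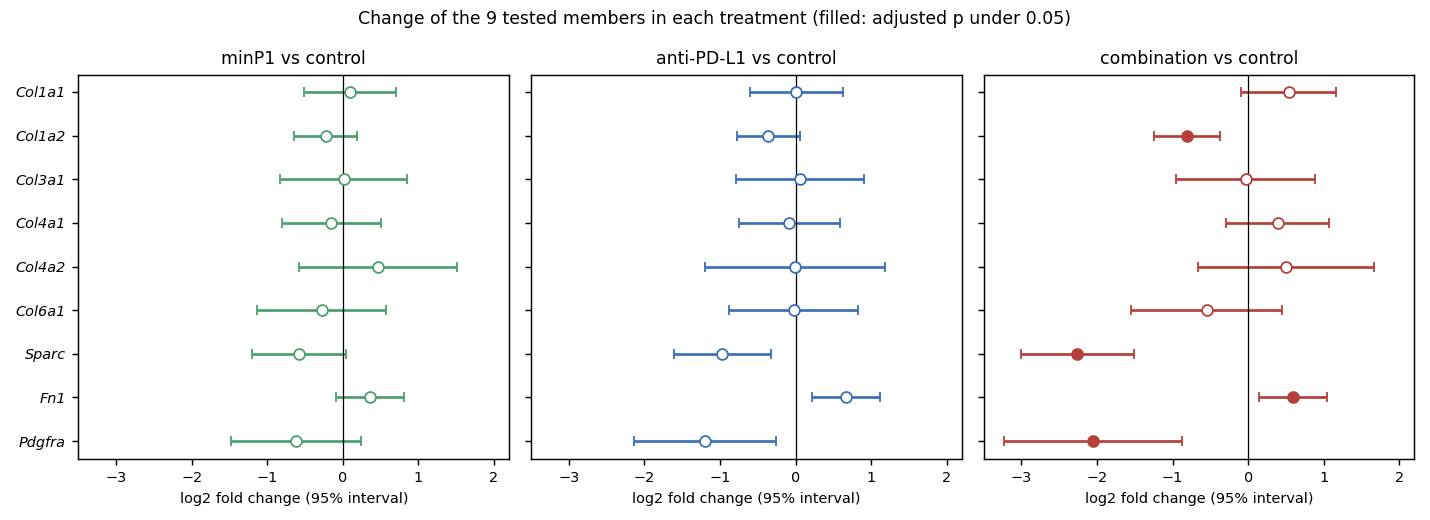
Log2 fold change over control (x axis, with 95% interval) of the 9 tested genes (rows) in minP1, anti-PD-L1 and combination tumours; filled points had an adjusted p under 0.05. Only the combination panel has filled points, for Sparc, Pdgfra and Col1a2 below 0 and for Fn1 above 0.

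Among the fibrillar collagens, Col1a2 (chr6:4504814-4541544, plus strand, GRCm38) was the gene called in the combination against control. Relative to the mean, its replicates had the smallest spread of the 4. It had 632, 564 and 599 CPM in minP1 tumours, 526, 560 and 554 CPM in anti-PD-L1 tumours, 401, 394 and 406 CPM in combination tumours, and 641, 717 and 748 CPM in controls. Every combination library lay below every other library, and every treated library lay below every control library. Its log2 fold change in the combination was -0.81 ± 0.21 (SE; 95% interval -1.25 to -0.37; edgeR adjusted p = 0.0052). In anti-PD-L1 the change was -0.36 ± 0.20 (adjusted p = 0.365), and in minP1 -0.23 ± 0.20 (adjusted p = 0.867), neither of which passed. The combination also lay below minP1 by -0.58 ± 0.21 (adjusted p = 0.056) and below anti-PD-L1 by -0.45 ± 0.22 (adjusted p = 0.205), without passing. The call against control did not pass with Bc1 as a covariate (-0.71, adjusted p = 0.0524) or with detected genes as a covariate (-0.67, adjusted p = 0.159); over all 22 alternatives the adjusted p ran from 0.00347 to 0.159.

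Col1a1 (chr11:94936224-94953042, plus strand) supplies the partner chain of Col1a2, and its groups overlapped. It had 237, 209 and 277 CPM in minP1 tumours, 230, 241 and 214 CPM in anti-PD-L1 tumours, 495, 292 and 214 CPM in combination tumours, and 146, 201 and 325 CPM in controls. Combination replicate 1 was the highest of all 12 libraries, and controls held the lowest. Its change in the combination was 0.53 ± 0.30 (edgeR adjusted p = 0.174), with a 95% interval of -0.09 to 1.16 that lies above the whole interval of Col1a2. Without control replicate 3 the change was 0.91 ± 0.32 and passed (adjusted p = 0.0383; range over all alternatives 0.0383 to 0.625). In the lone treatments Col1a1 changed by 0.09 ± 0.29 in minP1 and 0.01 ± 0.30 in anti-PD-L1, neither of which passed.

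The ratio of Col1a2 to Col1a1 counts within a library was 2.51 ± 0.299 in minP1, 2.40 ± 0.169 in anti-PD-L1, 1.35 ± 0.542 in the combination and 3.42 ± 1.05 in controls (SD, n = 3 each). The combination ranged from 0.810 to 1.89 and the controls from 2.30 to 4.39, without overlap. The exact two-sided permutation test gave p = 0.1, the smallest value that 3 against 3 samples allow. The ratio of Col3a1 to Col1a1 was also lower on average, with 0.237 ± 0.124 in the combination and 0.351 ± 0.0366 in controls. Its combination range of 0.102 to 0.345 overlapped the control range of 0.309 to 0.373. It had p = 0.2 in the same exact two-sided permutation test. It rested on 20, 5 and 10 Col3a1 counts in the combination libraries. With 3 against 3 samples this exact test moves in coarse steps, so it cannot tell the changes of these ratios apart. The pairs were chosen after the levels had been seen, so these ratios are descriptions.

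**Figure D3:**
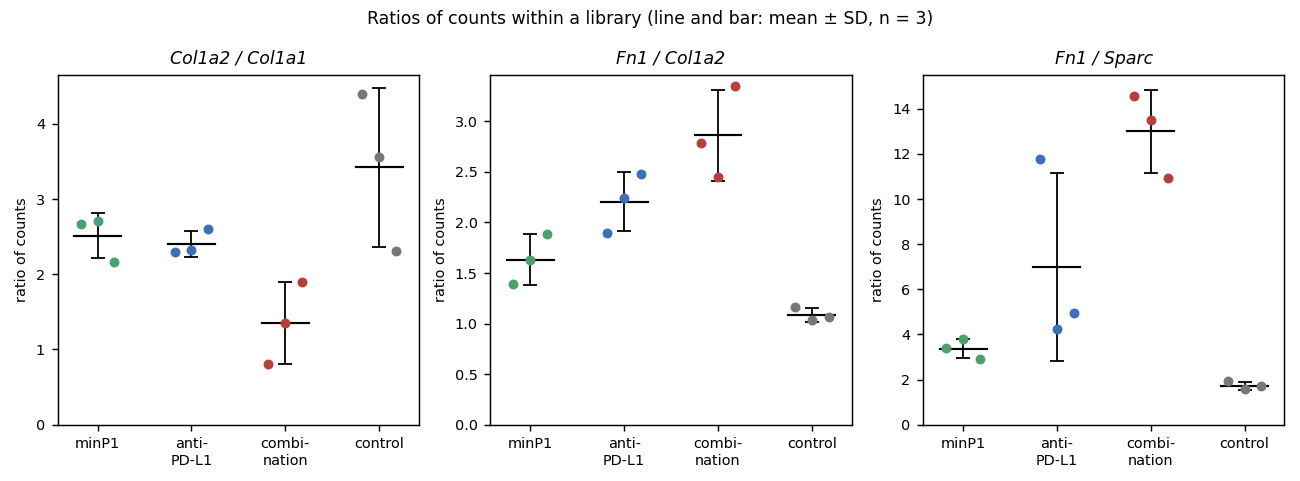
Ratios of counts within a library (y axis) for 3 pairs of genes, by group (x axis), with each library as a point and the mean ± SD as a line and bar (n = 3). The combination libraries lie below all controls for Col1a2 over Col1a1 and above all controls for both Fn1 ratios.

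Col3a1, the type III collagen gene (chr1:45311538-45349706, plus strand), had 90.3, 65.9 and 88.9 CPM in minP1 tumours, 54.4, 89.0 and 103 CPM in anti-PD-L1 tumours, 171, 29.8 and 56.4 CPM in combination tumours, and 54.4, 62.2 and 121 CPM in controls. The combination held both the highest and the lowest of the 12 libraries, and its log2 fold change was -0.04 ± 0.44 (edgeR adjusted p = 0.958). Its 95% interval of -0.95 to 0.88 does not exclude changes of close to 1 log2 unit in either direction. Col5a2, a type V collagen gene (chr1:45374321-45503282, minus strand), was present in 6, 4 and 5 counts in minP1 tumours, 0, 3 and 4 in anti-PD-L1 tumours, 5, 4 and 3 in combination tumours, and 2, 3 and 15 in controls. A count of 0 allows up to 3 counts in that library, and this gene was too sparse for the filter, so no test is given.

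The basement membrane genes Col4a1 and Col4a2 start head to head on chromosome 8. In RefSeq's GRCm38.p6 windows the Col4a1 start at 11312826 lies on the minus strand and the Col4a2 start at 11312805 on the plus strand. The shared stretch, chr8:11312777-11312854 on the plus strand, is shown because tags of both genes begin in or next to it. Its capitals mark the 22 bases from one start to the other, which both transcripts contain on opposite strands.
Col4a1 and Col4a2: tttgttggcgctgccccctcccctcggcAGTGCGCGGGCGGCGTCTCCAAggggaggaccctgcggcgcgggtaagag
How the counting treated strand is not given in the sources used here, so a tag inside the capitals may not be told apart between the genes.

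Col4a1 had 67.7, 84.2 and 95.5 CPM in minP1 tumours, 84.6, 100.1 and 75.8 CPM in anti-PD-L1 tumours, 196, 113 and 67.7 CPM in combination tumours, and 103, 91.4 and 82.9 CPM in controls. Combination replicate 1 was the highest library and replicate 3 lay below every control, so the groups overlapped. The change was 0.39 ± 0.33 (edgeR adjusted p = 0.378). Col4a2 had 37.6, 18.3 and 46.1 CPM in minP1 tumours, 12.1, 44.5 and 13.8 CPM in anti-PD-L1 tumours, 51.2, 29.8 and 28.2 CPM in combination tumours, and 22.9, 32.9 and 20.2 CPM in controls. It rested on 16 counts in the combination and 26 in controls, and its change was 0.50 ± 0.57 (adjusted p = 0.52). Neither gene passed in any of the 6 comparisons.

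Col6a1, a chain of the type VI collagen filaments (chr10:76708792-76726168, minus strand), had 18.8, 43.9 and 46.1 CPM in minP1 tumours, 66.5, 37.1 and 34.4 CPM in anti-PD-L1 tumours, 34.1, 17.9 and 39.5 CPM in combination tumours, and 34.3, 47.5 and 51.5 CPM in controls. The combination and control ranges overlapped, and the change of -0.55 ± 0.49 did not pass (edgeR adjusted p = 0.397). Across the collagens, combination replicate 1 was the highest of the 12 libraries for 5 of 7 genes (Col1a1, Col3a1, Col5a2, Col4a1 and Col4a2). It was also the shallowest library, with 133917 counts, and the part of its depth in these values was not tested. Col3a1, Col5a2 and Col4a2 rested on 20, 5 and 6 counts in it. How often this library was the highest over all genes is not given here.

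**Figure D4:**
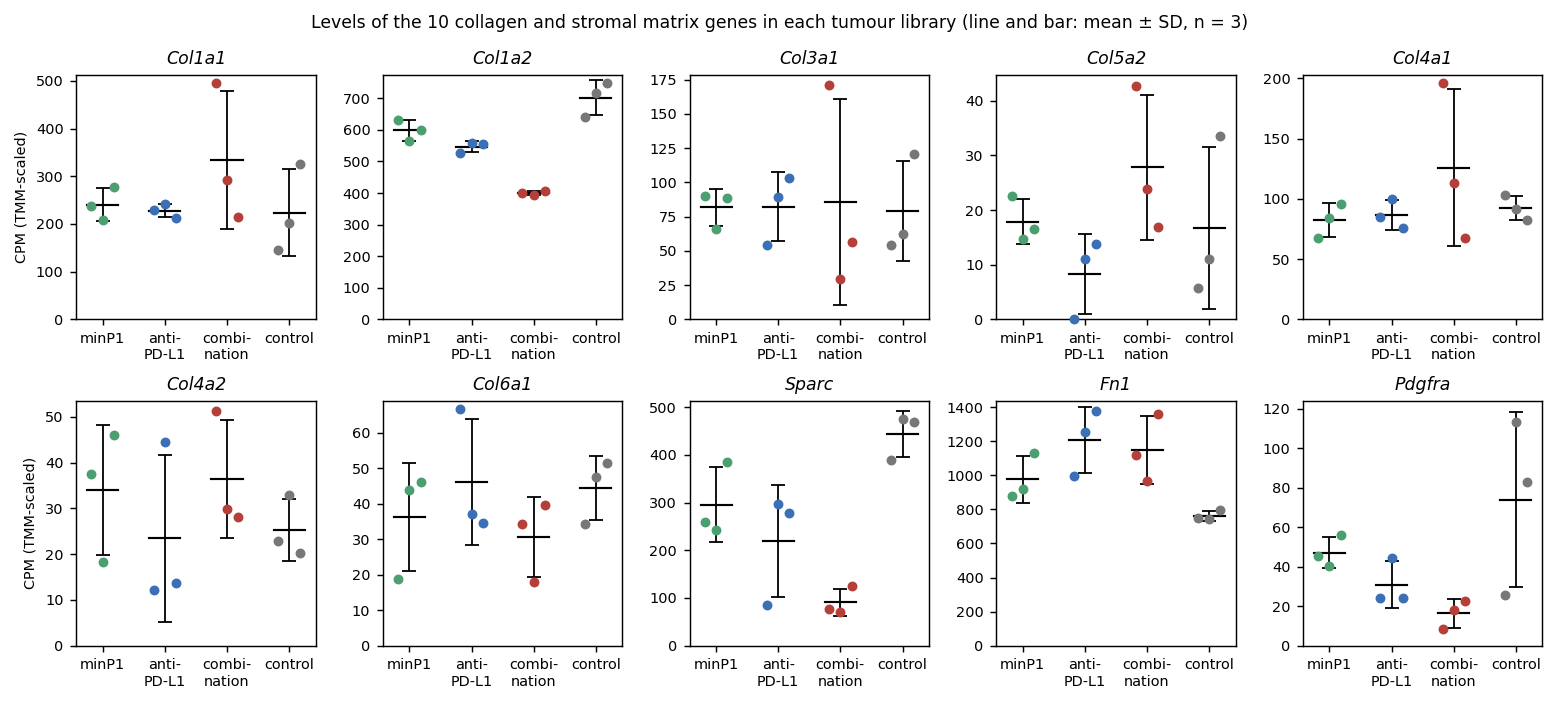
Levels of the 10 genes (CPM, y axis) in each library by group (x axis), with points for libraries and a line and bar for the mean ± SD (n = 3 per group). Sparc and Col1a2 lie lower in all 3 combination libraries than in all 3 controls, while Col1a1, Col3a1 and Col4a1 spread widely within the combination.

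Sparc, the collagen-binding glycoprotein gene (chr11:55394500-55423183, minus strand), showed the largest change of the 9 tested genes in the combination. It had 260, 242 and 385 CPM in minP1 tumours, 84.6, 297 and 279 CPM in anti-PD-L1 tumours, 76.8, 71.6 and 124 CPM in combination tumours, and 389, 475 and 468 CPM in controls. All 9 treated libraries lay below all 3 controls, and anti-PD-L1 replicate 1 lay among the combination libraries. The combination fell by 2.26 ± 0.36 on the log2 scale (95% interval -3.01 to -1.52; edgeR adjusted p = 6.31e-05), and this passed in all 22 alternatives, with values from -2.57 to -1.43. In anti-PD-L1 the change was -0.97 ± 0.31 (adjusted p = 0.108), and in minP1 -0.58 ± 0.30 (adjusted p = 0.75).

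Sparc was the single one of the 9 genes to pass in the combination against each lone treatment. It fell by 1.68 ± 0.37 against minP1 (edgeR adjusted p = 0.00261), where 20% of all genes passed in either direction and 10.8% as lower. With detected genes as a covariate that change was -1.08 and did not pass (adjusted p = 0.0996). Against anti-PD-L1 it fell by 1.30 ± 0.38 (adjusted p = 0.0364), beside 6.94% of all genes in either direction and 3.95% as lower, although anti-PD-L1 replicate 1 overlapped the combination. That second call rests on several libraries. It was -1.05 without anti-PD-L1 replicate 2 (adjusted p = 0.175), -1.10 without anti-PD-L1 replicate 3 (0.171), -1.17 without combination replicate 1 (0.16) and -1.10 without combination replicate 2 (0.155), and the adjusted p ran from 0.00129 to 0.175 over the alternatives. The interaction, which asks whether minP1 acted differently with the antibody than without it, was -0.71 ± 0.48 for Sparc (adjusted p = 0.626).

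Fn1, the fibronectin gene, was the most abundant of the 10 and the one called higher in the combination. It had 877, 919 and 1130 CPM in minP1 tumours, 997, 1253 and 1378 CPM in anti-PD-L1 tumours, 1118, 967 and 1360 CPM in combination tumours, and 747, 742 and 795 CPM in controls. All 9 treated libraries lay above all 3 controls, which were close together. The combination rose by 0.59 ± 0.22 (95% interval 0.14 to 1.05; edgeR adjusted p = 0.0391). Anti-PD-L1 alone gave 0.67 ± 0.22 (adjusted p = 0.109) and minP1 alone 0.36 ± 0.22 (adjusted p = 0.8), and the combination differed from anti-PD-L1 by -0.08 ± 0.22 (95% interval -0.53 to 0.38; adjusted p = 0.873).

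The Fn1 call was close to the threshold and did not pass in 9 of 22 alternatives, with log2 fold changes from 0.46 to 0.88 and adjusted p from 0.0133 to 0.212. Leaving out any control ended it, at 0.62 without replicate 1 (adjusted p = 0.0524), 0.60 without replicate 2 (0.0843) and 0.62 without replicate 3 (0.0788). So did leaving out minP1 replicate 1 (0.59, adjusted p = 0.0526), anti-PD-L1 replicate 2 (0.59, 0.0532) or combination replicate 3 (0.46, 0.16). The direction stayed the same in all 22. In GENCODE's annotation an antisense gene, Apol7d, overlaps Fn1 (chr1:71585520-71653200, minus strand, GRCm38), and the tags of the pair may not be told apart. The summed macrophage markers, given further on, lay above controls in all 3 combination libraries. Anti-PD-L1 replicate 3, the highest library for Fn1, had a marker sum of 1102 CPM, below all controls. The part of these cells in the Fn1 level was not tested.

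With Sparc and Col1a2 low and Fn1 high, the ratios of Fn1 to these genes were higher in all 3 combination libraries than in all 3 controls. Fn1 over Sparc was 3.37 ± 0.436 in minP1, 6.98 ± 4.17 in anti-PD-L1, 13.0 ± 1.85 in the combination and 1.73 ± 0.18 in controls (SD, n = 3 each). Fn1 over Col1a2 was 1.63 ± 0.249 in minP1, 2.21 ± 0.295 in anti-PD-L1, 2.86 ± 0.451 in the combination and 1.09 ± 0.0683 in controls. Both gave p = 0.1 for the combination against controls in the exact two-sided permutation test, again the smallest value possible. That outcome was fixed in advance, as Fn1 lay above all controls, and Sparc and Col1a2 below them, in every combination library. These ratios are therefore descriptions and add no support.

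Pdgfra, the growth factor receptor gene (chr5:75152292-75198215, plus strand, overlapped by the antisense gene Gm42802), had 45.2, 40.3 and 56.0 CPM in minP1 tumours, 24.2, 44.5 and 24.1 CPM in anti-PD-L1 tumours, 8.54, 17.9 and 22.6 CPM in combination tumours, and 25.8, 113 and 82.9 CPM in controls. The combination lay below all controls, but control replicate 1 lay close to it. The values rest on 1, 3 and 4 counts in the combination and 9, 31 and 37 in controls. Pdgfra fell by 2.05 ± 0.57 on the log2 scale (95% interval -3.23 to -0.87; edgeR adjusted p = 0.00788). The call did not pass with Bc1 as a covariate (-1.34, adjusted p = 0.18), with detected genes as a covariate (-0.53, 0.686) or with limma voom (-1.73, 0.105), among 20 alternatives whose adjusted p ran from 0.000651 to 0.686. In anti-PD-L1 the change was -1.20 ± 0.46 (adjusted p = 0.164), which passed without control replicate 1 (-1.57 ± 0.39, adjusted p = 0.0418; range over its alternatives 0.0418 to 0.982). In minP1 it was -0.62 ± 0.42 (adjusted p = 0.819).

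The lone treatments were tested against control in the same model. In anti-PD-L1 against control, 0 of 9 passed in edgeR, DESeq2 and limma voom, beside 1.12% of all genes in edgeR, and 3 of 9 had an unadjusted p under 0.05 (Sparc, Fn1 and Pdgfra). In minP1 against control, 0 of 9 passed in all 3 tools, beside 0% of all genes in edgeR, and 0 of 9 had an unadjusted p under 0.05. Groups did not overlap for 3 of 9 genes in each of these comparisons, beside 23.5% of all genes in anti-PD-L1 and 12.4% in minP1, and in both the genes were Col1a2 and Sparc below controls and Fn1 above. For the combination against control this held for 4 of 9, beside 45.9%. These comparisons share their 3 controls, so they are not independent. For the interaction 0 of 5443 genes passed in edgeR, while 600 had an unadjusted p under 0.05 and 4 passed in DESeq2. Among the 9 genes 0 had an unadjusted p under 0.05 and 0 passed in DESeq2 or limma voom.

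The 3 genes that fell in the combination are on different chromosomes, and RefSeq's windows of 250 bases before to 50 after the start (GRCm38.p6) are shown to let their promoters be compared. Such windows matched 7 of the 10 genes. Capitals mark CCAAT or its reverse complement ATTGG, searched on both strands together with TATAAA and GGGCGG. The windows are chr6:4505368-4505667 on the plus strand for Col1a2, chr11:55420031-55420330 on the minus strand for Sparc and chr5:75152001-75152300 on the plus strand for Pdgfra. For Sparc the window's start is 55420080, inside the GENCODE locus, which begins at 55423183 on the minus strand. For Col1a2 it is 4505618, also inside its locus, which begins at 4504814. Other starts of these genes were not searched.
Col1a2: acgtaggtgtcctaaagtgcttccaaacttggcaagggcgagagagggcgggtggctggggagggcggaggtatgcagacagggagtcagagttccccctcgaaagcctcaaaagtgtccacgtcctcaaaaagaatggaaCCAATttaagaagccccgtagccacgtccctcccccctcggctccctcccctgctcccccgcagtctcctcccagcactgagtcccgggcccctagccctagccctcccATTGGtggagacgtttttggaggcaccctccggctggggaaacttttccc
Sparc: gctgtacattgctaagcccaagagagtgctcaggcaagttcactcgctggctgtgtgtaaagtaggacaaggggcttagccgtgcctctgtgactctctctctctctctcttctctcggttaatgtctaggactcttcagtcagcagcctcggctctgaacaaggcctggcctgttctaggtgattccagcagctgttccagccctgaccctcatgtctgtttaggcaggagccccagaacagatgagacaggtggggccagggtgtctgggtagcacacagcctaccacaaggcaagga
Pdgfra: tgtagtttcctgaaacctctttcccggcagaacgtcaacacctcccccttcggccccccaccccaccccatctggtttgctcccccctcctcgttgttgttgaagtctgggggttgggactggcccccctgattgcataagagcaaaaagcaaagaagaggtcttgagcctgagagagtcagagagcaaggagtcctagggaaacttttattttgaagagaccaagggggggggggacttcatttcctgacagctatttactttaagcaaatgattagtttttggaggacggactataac
Col1a2 held 2 matches to CCAAT and 2 to GGGCGG, and the windows of Sparc and Pdgfra held none of the 3 motifs. Among matched genes that were not called, Col6a1 also held none, and Col3a1 held 1 match to TATAAA. Col4a1 held 1 match to CCAAT and 1 to GGGCGG, and Col4a2 held 1 and 3. Over 32851 such windows, 37.4% held CCAAT, 13.6% TATAAA and 35.7% GGGCGG. A match or its absence describes only these letters in these windows.

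Genes that make, modify and cross-link collagen were next, and they moved in both directions. Of 19 tested genes, 2 rose and 3 fell in the combination, with a median of -0.25 against -0.06 over all genes. Over all genes tested 16.5% rose and 18.3% fell, 34.8% together, so calls on this list were no more frequent than over all genes. Across this and the following lists 29 genes were called in the combination against control, of which 10 passed with Bc1 as a covariate and 4 with detected genes as a covariate (Serpinh1, Sdc3, S100a4 and Apoe). Serpinh1, the collagen chaperone HSP47, averaged 35.6 ± 7.24 CPM in the combination and 190.3 ± 77.7 CPM in controls, a fall by 2.41 ± 0.38 on the log2 scale (edgeR adjusted p = 5.44e-05). It passed in every alternative, and also fell against anti-PD-L1 (by 1.43 ± 0.42) and minP1 (by 1.84 ± 0.40). Colgalt1, which adds galactose to collagen, fell by 1.42 ± 0.43, and Pcolce, which helps trim procollagen ends, fell by 0.81 ± 0.28. The lysyl oxidase relative Loxl1 rose by 1.73 ± 0.49 and the lysyl hydroxylase Plod2 by 0.86 ± 0.31. Apart from Serpinh1, each of these calls was lost when 1 library was left out, with Loxl1 at 1.11 (adjusted p = 0.121) and Colgalt1 at -0.91 (0.0745) without combination replicate 1, Pcolce at -0.71 (0.124) without combination replicate 2 and Plod2 at 0.70 (0.15) without combination replicate 2. Colgalt1 was also lost without combination replicate 2 (-1.35, 0.0605), Pcolce without combination replicate 1 or 3 or control replicate 2 or 3 (-0.82 to -0.75), and Plod2 without combination replicate 1 or control replicate 1 or 3 (0.77 to 0.89).

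Of the other collagen genes, 24 were listed, 17 were in the tables and 3 could be tested, and none passed in edgeR. Col16a1 had 57.8 ± 20.6 CPM in the combination and 111 ± 36.2 CPM in controls, with a change of -0.88 ± 0.38 (adjusted p = 0.0763). Col8a1 changed by -0.44 ± 0.28 and Col5a1 by 0.22 ± 0.32, neither past the threshold.

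Among 15 tested glycoproteins and proteoglycans of the matrix, 3 rose and 3 fell, near the 34.8% called over all genes, with a median of 0.31 against -0.06. Fbn1, the fibrillin of elastic microfibrils, averaged 263 ± 184 CPM in the combination and 36.3 ± 3.6 CPM in controls and rose by 2.78 ± 0.46 (edgeR adjusted p = 9.20e-05). The laminin genes Lama5 and Lamc1, which build basement membranes, rose by 1.41 ± 0.33 and 1.03 ± 0.29. Nid1, the nidogen that links laminin to type IV collagen, fell by 2.09 ± 0.64, the TGF-beta-induced adhesion protein Tgfbi by 1.65 ± 0.39 and the small proteoglycan Ogn by 1.29 ± 0.43. Fbn1, Lama5 and Tgfbi passed with any 1 library left out, but not with detected genes as a covariate (Fbn1 1.74, adjusted p = 0.113; Lama5 1.32, 0.0871; Tgfbi -1.09, 0.202), and Tgfbi not with Bc1 (-1.27, 0.0614). Lamc1 did not pass without control replicate 3 (0.80, adjusted p = 0.0605), Nid1 not without combination replicate 1 (-1.61, 0.0693) or 2 (-2.12, 0.0508), and Ogn not without combination replicate 1 (-0.88, 0.131) or 2 (-1.14, 0.103) or control replicate 1 (-1.05, 0.0797).

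Of 12 tested matrix receptors, 3 rose and 3 fell, beside 16.5% and 18.3% of all genes, with a median of -0.31 against -0.06. The integrin chain genes Itgav and Itga4 rose by 1.43 ± 0.28 and 2.14 ± 0.64, and the syndecan gene Sdc3 by 1.73 ± 0.33. Ddr2, a receptor for fibrillar collagen, averaged 33.4 ± 13.5 CPM in the combination and 97.3 ± 27.5 CPM in controls and fell by 1.57 ± 0.43 (edgeR adjusted p = 0.00677). Itgb5 fell by 1.26 ± 0.44 and the syndecan gene Sdc2 by 1.01 ± 0.27. The calls of Itgav, Sdc3 and Sdc2 passed with any 1 library left out, though Itgav did not with detected genes as a covariate (1.03, adjusted p = 0.0987) and Sdc2 neither with these (-0.80, 0.197) nor with Bc1 (-0.94, 0.067). Itga4 did not without combination replicate 3 (1.60, adjusted p = 0.143), Ddr2 not without combination replicate 2 (-1.18, 0.071) and Itgb5 not without control replicate 2 (-0.99, 0.12) or combination replicate 1 (-1.36, 0.0538), 2 (-1.38, 0.0673) or 3 (-0.92, 0.153).

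In the growth factor group around Pdgfra, 11 genes of the PDGF and TGF-beta systems could be tested, of which 1 rose and 3 fell, near the 34.8% called over all genes, with a median of -0.26 against -0.06. Pdgfa, a ligand of Pdgfra, fell by 1.60 ± 0.57, though not without combination replicate 2 (-1.12, adjusted p = 0.186) or 3 (-1.38, 0.115) or control replicate 2 (-1.38, 0.104). Smad2, which carries the TGF-beta signal to the nucleus, fell by 1.83 ± 0.51 (edgeR adjusted p = 0.00741), on 2, 4 and 2 counts in the combination. Smad2 did not pass with Bc1 as a covariate (-1.265, adjusted p = 0.165) or with detected genes as a covariate (-1.48, 0.195). The latent TGF-beta binding protein genes went apart, as Ltbp2 fell by 2.55 ± 0.75 and Ltbp3 rose by 0.75 ± 0.23. Ltbp2 rested on few tags and did not pass without combination replicate 1 (-2.08, adjusted p = 0.0562). Ltbp3 did not pass with Bc1 as a covariate (0.58, adjusted p = 0.154), with detected genes (0.46, 0.404) or without the filter on low counts (0.69, 0.0976). Pdgfa and Ltbp2 did not pass with either covariate.

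**Figure D5:**
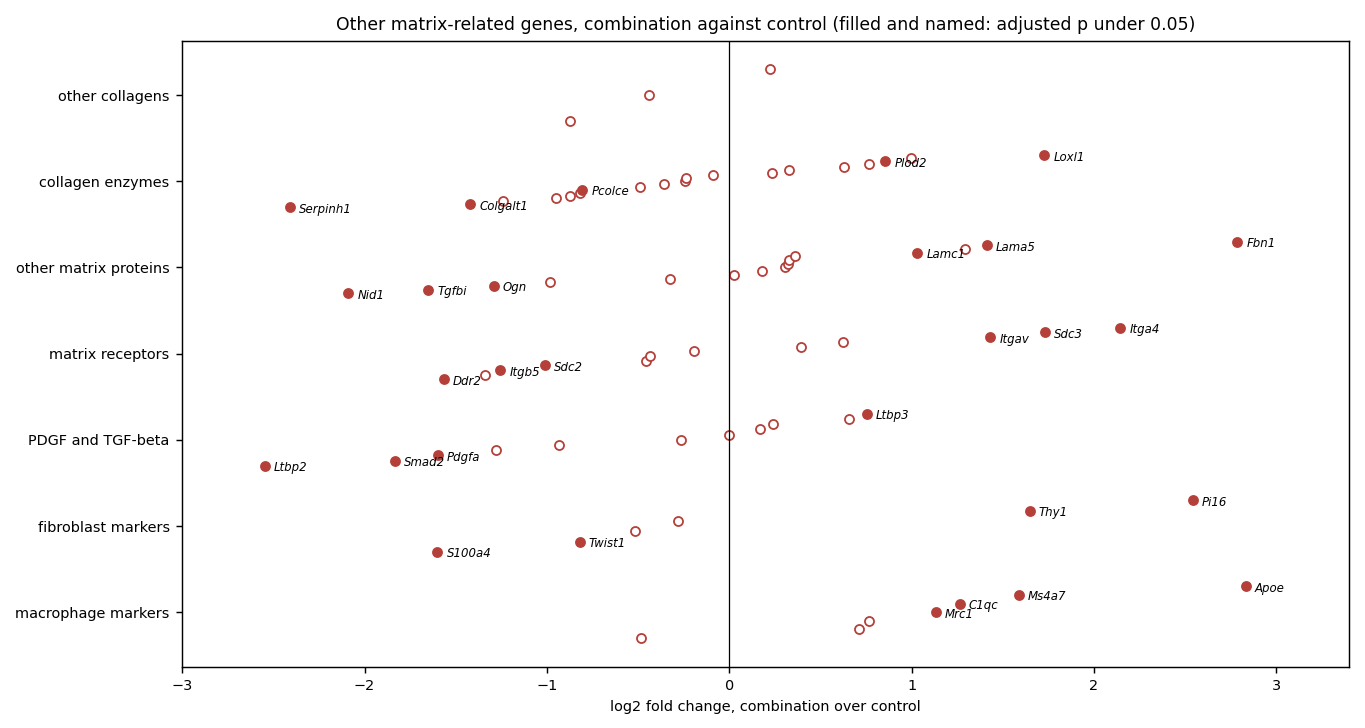
Log2 fold change of the combination over control (x axis) for the tested genes of each list of matrix-related genes and cell markers (rows); filled and named points had an adjusted p under 0.05. Named points lie on both sides of 0 in every matrix list with calls, and the 4 named macrophage markers all lie above 0.

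Markers of the cells that could carry these transcripts were counted in the same way. Of 6 tested fibroblast and pericyte markers, 2 rose and 2 fell, beside 16.5% and 18.3% of all genes. Pi16, of universal fibroblasts, rose by 2.54 ± 0.61, but not without combination replicate 1 (1.5, adjusted p = 0.0928). The surface glycoprotein gene Thy1, which T cells also carry, rose by 1.65 ± 0.37. Neither Pi16 nor Thy1 passed with Bc1 or with detected genes as a covariate. S100a4, which leukocytes and tumour cells also make, fell by 1.60 ± 0.23 (edgeR adjusted p = 2.13e-05), and the transcription factor gene Twist1 by 0.82 ± 0.30, a call lost when any 1 library was left out other than control replicate 2 and anti-PD-L1 replicates 1 and 2 (values without one of the other 9 from -0.89 to -0.58). The 17 markers in the tables summed to 1818 to 1957 CPM in the combination and 3944 to 4911 CPM in controls, most of it S100a4. Without S100a4 the other 16 summed to 412 to 777 CPM in the combination and 479 to 624 CPM in controls, which overlap. The fibroblast proteoglycan gene Dcn averaged 21.5 ± 18.5 CPM in the combination (10 counts in all) and 28.2 ± 16.8 CPM in controls (33 counts). The related gene Lum averaged 62.6 ± 33 CPM (27 counts) in the combination and 15.8 ± 5.53 CPM (16 counts) in controls, and neither gene was tested.

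Of 7 tested macrophage markers, 4 rose and 0 fell in the combination, beside 16.5% and 18.3% of all genes, with Apoe up by 2.83 ± 0.33, Ms4a7 by 1.59 ± 0.31, C1qc by 1.26 ± 0.27 and Mrc1 by 1.13 ± 0.29, and C1qb changed by -0.48 ± 0.42 without passing (adjusted p = 0.392). Of the 4, Ms4a7 (adjusted p = 0.0618), C1qc (0.117) and Mrc1 (0.266) did not pass with detected genes as a covariate, nor Mrc1 with Bc1 (0.116). The 13 markers in the tables summed to 896 to 1380 CPM in minP1, 1102 to 1759 CPM in anti-PD-L1, 2208 to 4755 CPM in the combination and 1176 to 1342 CPM in controls. Without Apoe the other 12 summed to 1599 to 2996 CPM in the combination and 1050 to 1101 CPM in controls. Endothelial markers summed to 73.3 to 128 CPM in the combination and 64.9 to 77.3 CPM in controls, which overlap. Flt1, the 1 endothelial marker that could be tested, changed by -0.02 ± 0.55 in the combination against control (edgeR adjusted p = 0.978). The part of these cell types in the matrix gene levels was not tested. In anti-PD-L1 and in minP1 against control, no gene of any of these lists passed in edgeR.

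Across the 12 libraries the collagen and matrix genes did not vary as a unit. Sparc and Col1a2 had a Pearson r of 0.90 and Fn1 and Col1a2 one of -0.60 on log2 CPM, while Col1a1 and Col1a2 had -0.39. The profile of Fn1 was most like that of Ccl8 (r = 0.90), a chemokine gene, followed by AA467197 (0.86), Ppm1b (0.86), Arrdc3 (0.84) and the metallothionein gene Mt1 (0.84). The mean of Col1a1, Col1a2 and Col3a1 was most like Ttc1 (0.89), Osbpl8 (0.88), Srrm1 (0.84), Nmt2 (0.82) and Nipa2 (0.80). These values describe 12 libraries that share treatments and differ in depth, and no test was made of them.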

How the data were processed

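The files hold whole-number counts for each gene symbol as the authors deposited them, with 1 table for each of 12 samples and no scaling. The submitters' processing notes list Bowtie2 (2.2.5), R (3.6.1), DESeq2 and build mm10 without saying what each did. How reads were counted, with which annotation, and how strand and multiple matches were treated is not given in the sources used here. No molecular identifiers are recorded, so floors cover counting error only. Each sample came from a separate mouse, per the labels.

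The filterByExpr defaults of edgeR kept 5443 genes, with 89.8% to 93.6% of the counts in each library. All 12 samples entered 1 quasi-likelihood fit (edgeR 4.0.16 in R 4.3.3) with TMM factors, 1 mean per group and a prior count of 0.125. P-values were adjusted by Benjamini-Hochberg over the 5443 genes, separately for 6 comparisons, and called under 0.05. The common dispersion came to 0.0506. SE values are the log2 fold change divided by the root of the F statistic. On simulated counts for the combination against control (5022 genes), 84.7% of genes changed 4-fold were recovered. The simulation gave every gene the common dispersion, so this share does not cover smaller changes or genes with a wider spread. DESeq2 1.42.0, limma 3.58.1, other scalings, covariates and leave-one-out fits were alternatives.

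Genes named were mainly the members, up to 5 genes of smallest p per list in the combination against control, and, by a choice made after their values were seen, the other list genes that passed there. Some genes under this rule that did not pass, such as Itgam, Pdpn, Tgfbr3 and Fabp4, are not described. The markers Krt8, Krt18, Dcn, Lum and C1qb were named outside it, by choice. Members and lists were chosen with earlier results of these data known. Loci are from GENCODE M21 and sequences from RefSeq, both on GRCm38. Ratios were tested with exact permutation tests.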

Additional observations from a re-analysis of the deposited data

How the results depend on the processing

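Of the 4 genes called in the combination against control, Sparc passed in all 22 alternatives. The count was 2 with Bc1 as a covariate, 1 with detected genes as a covariate and 2 with only the groups compared in the fit (where 6 members were tested), and 3 to 4 when each replicate was left out in turn. Genes called overall were 851, 407 and 1498 under those 3 settings, against 1892, and 1433 to 2054 when a replicate was left out. In minP1 against control 0 members passed in all 22 alternatives, and for the interaction 0 in all 21. In anti-PD-L1 against control the count was 0, and 0 to 1 when a replicate was left out. In the combination against anti-PD-L1 the count was 1, and 0 at equal depth, with detected genes as a covariate and with limma voom, and 0 to 1 when a replicate was left out. In the combination against minP1 it was 1, 0 with detected genes as a covariate and 2 with only the groups compared, and 1 when each replicate was left out. No called value of a named gene changed sign. Of 29 list genes called in the combination against control, 15 passed in all leave-one-out fits and 4 in all alternatives (Serpinh1, Sdc3, S100a4 and Apoe). Apart from the settings that test fewer genes or samples, the cause was not tested.

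The labels do not say that replicate numbers pair samples. Same-numbered samples had a median correlation of deviations of 0.0962 (-0.137 to 0.211, 9 of 18 pairs over 0.1), against -0.0432 for different numbers (7 of 36 over 0.1), and 7 of 12 samples correlated best with their own number on average. Not every pair was over 0.1, so the numbers were not taken as a pairing. With the replicate number as a block, 4 members passed in the combination against control, and 1 in anti-PD-L1 against control (Sparc, -1.04 ± 0.27, edgeR adjusted p = 0.0312; range over its alternatives 0.0312 to 0.811), where 173 genes passed in place of 61. The other counts of members were as without the block.

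Depth limits Pdgfra, Col4a2, Col5a2 and Col6a1 most, each at 16 counts or fewer in all over the 3 combination libraries.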
